A study of Danio rerio with 40 samples.

Results

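Proteoglycans are proteins that carry long sulfated sugar chains, and hyaluronan is an unsulfated sugar chain spun out at the cell surface without a protein core. Together with collagen they form the hydrated matrix around connective tissue cells, and in the zebrafish heart hyaluronan and its link proteins are known from the formation of valves and from regrowth after injury. The 5 genes described here each stand for a step of this system. sdc4 (ENSDARG00000059906) encodes syndecan 4, a membrane proteoglycan with heparan sulfate chains. DCN (ENSDARG00000012066) and LUM (ENSDARG00000045580) encode decorin and lumican, small leucine-rich proteoglycans that bind collagen fibrils. HAS2 (ENSDARG00000036987) encodes a synthase that makes hyaluronan, and hapln1a (ENSDARG00000089769) a link protein that fastens proteoglycans to it. They were taken from the 33737 genes of the table by identifier for sdc4 and by symbol, ignoring case, for the other 4, and all 5 were found.

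The study measured transcripts in 40 single cells of 1 group. The cells came from ventricles of adult zebrafish, strain EK, aged 6 months, that carry a tcf21:nucEGFP reporter, and were sorted as positive for the reporter and negative for propidium iodide, a dye that enters dead cells. The reporter marks cells in which the promoter of tcf21, an epicardial transcription factor gene, is or has recently been active, so a sorted cell need not hold tcf21 transcripts. No animal, pool, batch or day is named, so the cells count as 1 sample, no test was run, and every spread is between cells of that sample.

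Levels are given as CPM, the expected reads of a gene scaled to a total of 1000000 reads in the cell, computed from the deposited expected counts, and a gene was called detected at 5 or more expected reads. Totals ran from 340293 to 5695770 reads per cell, and the 25 cells with at least 2000 detected genes are called kept cells. CPM is not divided by transcript length, so levels are compared between cells for each gene and not between genes. TCF21 was detected in 24 of 25 kept cells and in 37 of 40. Several libraries stood apart. Cardiomyocyte markers made up 19.1% of the reads of cell 7 and 16.8% of those of cell 33, neither of which was kept, and 1.05% of those of kept cell 18. Macrophage markers held 3.24% of reads in kept cell 11, where TCF21 was at 0.603 CPM. Kept cell 40 had 10792 genes detected, beside 4119 in the next cell. Shares of cells, mean levels, and correlations of pairs and of the closest genes were therefore also computed without cell 40 and without cells 11, 18 and 40. Values from these settings are given for some results only. Correlations with list sums and with cell totals were recomputed without cell 40 alone. Those of other list genes, and medians over lists, were not recomputed, so the part of cells 11 and 18 in them was not tested.

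All 5 genes were detected in 1 kept cell or more, as 43.6% of all 33737 genes were. In 90% or more of the kept cells, 4 of the 5 were found, beside 1.43% of all genes, and sdc4 and DCN reached 50 CPM there, beside 0.305% of all genes. The 5 were chosen with results of these cells known, so no more is read from these shares. The spread over cells differed from gene to gene. sdc4 and DCN were above 1000 CPM in 25 and 19 of the 25 kept cells, hapln1a was above 1000 CPM in 7 and at a few CPM in others, HAS2 had quartiles of 10.6 and 23.6 CPM, and LUM had no read in most.

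**Figure D1:**
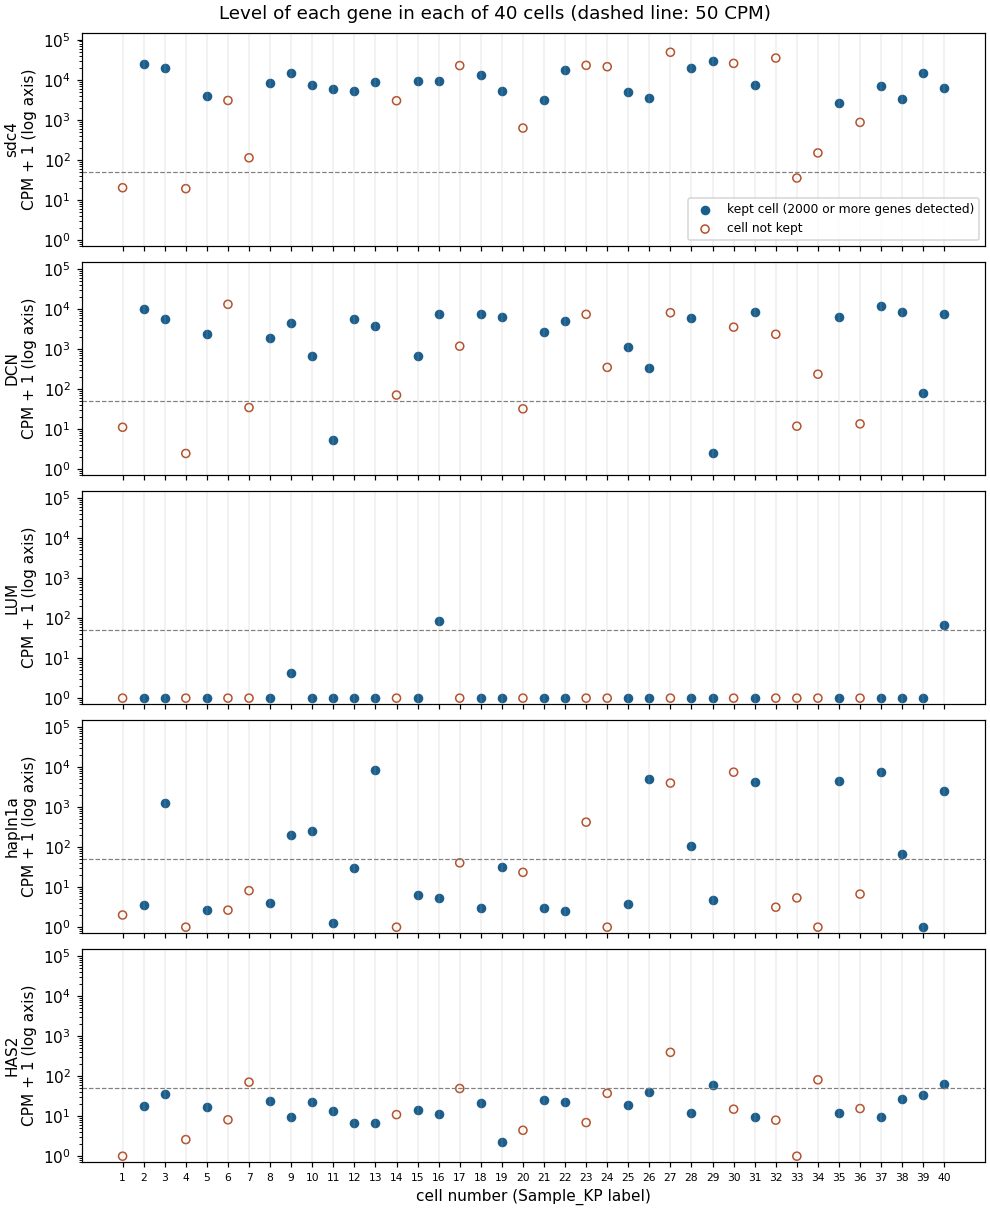
Level of each gene in each of the 40 cells as CPM + 1 on a log axis, with kept cells filled, other cells open, and a dashed line at 50 CPM. sdc4 is above the line in 37 of 40 cells and DCN in 32, hapln1a divides the cells, 14 above the line, HAS2 is above it in 5, and LUM has reads in 3.

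sdc4 transcripts were found in every cell. Syndecan 4 is a co-receptor at sites where the cell grips fibronectin, and its chains also hold growth factors. In kept cells its level had a lowest value of 2700.2 CPM in cell 35, a median of 7505 CPM and a highest value of 29410.4 CPM in cell 29 (mean 10203 ± 7195, SD over 25 cells). No kept cell lay near 0, and the coefficient of variation, 0.705, was the lowest of the 5. Over all 40 cells the range widened to between 18.2 CPM in cell 4 and 48476 CPM in cell 27. The cells that were not kept thus held both the lowest and the highest levels: cells 1, 4 and 33 were below 50 CPM, while cell 27 and cell 32, at 34739 CPM, lay above every kept cell. Cell 11, with macrophage markers and hardly any fibroblast transcripts, had 5935 CPM, within the range of the other kept cells. In cells 7 and 33, with cardiomyocyte markers, it was at 111.8 and 34.3 CPM.

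The level of sdc4 tended to be lower in deeper libraries. Its Spearman correlation with total reads was -0.39 over 25 kept cells, beside 0.20 for DCN, 0.16 for hapln1a and -0.15 for HAS2. Without cell 40, the deepest library, sdc4 had -0.40 and HAS2 -0.30. With TCF21 it was -0.34. The cells share a sorting gate and platform, differ in depth, and carry no label of sort day or run, so these values are descriptions, and the part of depth in the levels of sdc4 was not tested.

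DCN transcripts were high in most kept cells and nearly missing from 2. Decorin binds fibrillar collagen and limits the width of its fibrils, and it is a usual transcript of fibroblasts. The level had a lowest value of 1.47 CPM in cell 29, a median of 4905 CPM and a highest value of 12005 CPM in cell 37 (mean 4520 ± 3459, SD over 25 cells). It was above 1000 CPM in 19 of 25 kept cells, between 78.7 and 664.9 CPM in cells 39, 26, 10 and 15, and at 4.22 CPM in cell 11 and 1.47 CPM in cell 29. Cell 11 was the cell with macrophage markers. Cell 29 had the highest sdc4 of all kept cells but only 2 reads of DCN, and fibroblast markers held 0.122% of its reads, beside a median of 0.947% in kept cells. Outside the kept cells, the highest DCN of all 40 was 12921 CPM in cell 6, and 6 cells lay under 50 CPM. In cells 7 and 33 DCN was at 33.3 and 10.8 CPM, above the 2 lowest kept cells and below the other 23.

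LUM passed 5 reads in 3 of the 25 kept cells (12%, with a Wilson 95% interval of 4.17 to 29.96%). Its level was 84.0 CPM in cell 16, 64.1 CPM in cell 40 and 3.33 CPM in cell 9. All other cells, 37 of 40, had no read. Lumican, like decorin, regulates collagen fibrils and is best known from the cornea. All 3 cells also had DCN, at 7376, 7225 and 4338 CPM. In the RefSeq gene order of the GRCz12tu assembly lum and dcn are next to each other, with kera, another leucine-rich proteoglycan gene, on the other side of lum. KERA reached 5 reads in 0 of 25 kept cells, and its highest level was 1.55 CPM. Such a count allows a share of up to 12% (3 divided by 25) among cells like these to have 5 reads, a limit that is not Wilson's. The gene on the other side of dcn is not analysed here. A transcript present in few copies can be missed in a cell at this depth.

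HAS2 was found at a low level in nearly all cells. It had a lowest value of 1.22 CPM in cell 19, a median of 16.4 CPM and a highest value of 61.3 CPM in cell 40 (mean 20.4 ± 15.2, SD over 25 kept cells). It passed 5 reads in 24 of the 25 kept cells, and 50 CPM in cells 40 and 29 alone. Among the cells not kept, cell 27 stood far above all others with 389 CPM, from 980.5 expected reads. Cell 34 followed with 79.5 CPM and cell 7 with 69.3 CPM. These came from 27.06 and 58.24 expected reads in shallow libraries of 340293 and 839855 reads. Of the libraries with cardiomyocyte markers, cell 7 thus lay above every kept cell, while cell 33 had no read of HAS2. The expected reads of HAS2, 4.03 to 348.94 in kept cells, were not whole numbers in any of the 25, where 62.4% of all values in that range of reads were not whole. Values that are not whole arise where the estimate divides reads, so the low levels of HAS2 carry an uncertainty that the table does not give. The values of sdc4 were likewise not whole in all 25 kept cells, but at far higher reads.

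hapln1a was the gene that divided the cells. Link protein ties hyaluronan to proteoglycans such as versican, and in adult zebrafish hearts hapln1a is known as a gene of a subset of epicardial cells. In kept cells it had a lowest value of 0 in cell 39, a median of 28.2 CPM and a highest value of 8269 CPM in cell 13 (mean 1346 ± 2469, SD over 25 cells). The 7 cells at 1000 CPM or more were 13, 37, 26, 35, 31, 40 and 3. Cells 10, 9, 28 and 38 lay between 65.6 and 253.8 CPM, cells 19 and 12 at 30.8 and 28.2 CPM, and the other 12 at 5.48 CPM or less. The 3 highest cells held 61.4% of the summed level, beside 27.1% for DCN.

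In cells 7 and 33, with cardiomyocyte markers, hapln1a was at 7.14 and 4.37 CPM, so the 12 kept cells at 5.48 CPM or less all lay below cell 7, and all but cells 15 and 16 below cell 33. At 50 CPM, 11 of 25 kept cells had hapln1a (44.0%, Wilson 95% interval 26.7 to 62.9%), and at 5 reads 23 of 25. Of the cells not kept, 3 of 15 reached 50 CPM, with levels of 7359 CPM in cell 30, 3938 CPM in cell 27 and 416.1 CPM in cell 23. hapln1a was the gene with the closest relation to TCF21, with a Spearman correlation of 0.47 over 25 kept cells and 0.46 without cell 40, beside 0.09 for DCN. This did not extend to the list of epicardial markers. With their sum, TCF21 included, hapln1a had -0.10, and its median over the 4 epicardial genes compared was -0.04. Its correlation with genes detected per cell was 0.13. A second link protein gene, listed as HAPLN1 (ENSDARG00000068516), was detected in 3 kept cells and HAPLN3 in 3, and they reached 50 CPM in 2 and 1. In the GRCz12tu gene order the next coding gene to hapln1a is vcana, a versican gene, which is not analysed here. The other versican gene, vcanb, was detected in 11 kept cells and reached 50 CPM in 7, with a highest value of 789.7 CPM in cell 10 and a correlation of 0.27 with hapln1a.

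Seen together at 50 CPM, the genes were nested more than separate. sdc4 reached that level in all 25 kept cells, so the overlap of any gene with it is given by that alone. Of the 25 kept cells, with LUM set aside, 12 had sdc4 and DCN alone and 10 had sdc4, DCN and hapln1a. Cell 40 had these 3 and HAS2. LUM reached 50 CPM in cell 16, which is among the 12, and in cell 40. The remaining cells were 11, with sdc4 alone, and 29, with sdc4 and HAS2. Every kept cell with hapln1a at 50 CPM thus also had DCN, but DCN reached that level in 23 of 25, so the overlap follows largely from how common DCN was. Over all 40 cells the 14 with hapln1a were again all among the 32 with DCN. Cells 1, 4 and 33 had none of the 4 genes at 50 CPM. Cell 27, not kept with 1493 genes, combined the highest sdc4 and the highest HAS2 of all cells with DCN at 7969 CPM and hapln1a at 3938 CPM.

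Of the 6 pairs among the 4 genes detected in at least 10 kept cells, the highest Spearman correlation was 0.33, of DCN and hapln1a, and the lowest -0.35, of DCN and HAS2. Among all pairs of the 1674 genes compared, which passed 5 reads in 10 or more kept cells and had a mean level of 10 CPM or more, 10.3% had a higher correlation than the first and 4.18% a lower one than the second. sdc4 and DCN, both present in nearly all cells, had a correlation of 0.00. sdc4 had -0.18 with hapln1a and 0.10 with HAS2, and hapln1a and HAS2 had -0.22. The negative value of DCN and HAS2 was -0.45 without cell 40, -0.54 without cells 11, 18 and 40, -0.16 with median-of-ratios scaling and -0.02 over all 40 cells. DCN and hapln1a stayed between 0.30 and 0.45 in all settings. Over all 40 cells the pair of sdc4 and DCN had 0.37 and that of sdc4 and hapln1a 0.23. Cells 1, 4 and 34 were low in both sdc4 and hapln1a. Cells 7 and 33, also low in sdc4, had hapln1a at 7.14 and 4.37 CPM, beside a median of 5.59 CPM over all 40 cells.

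**Figure D2:**
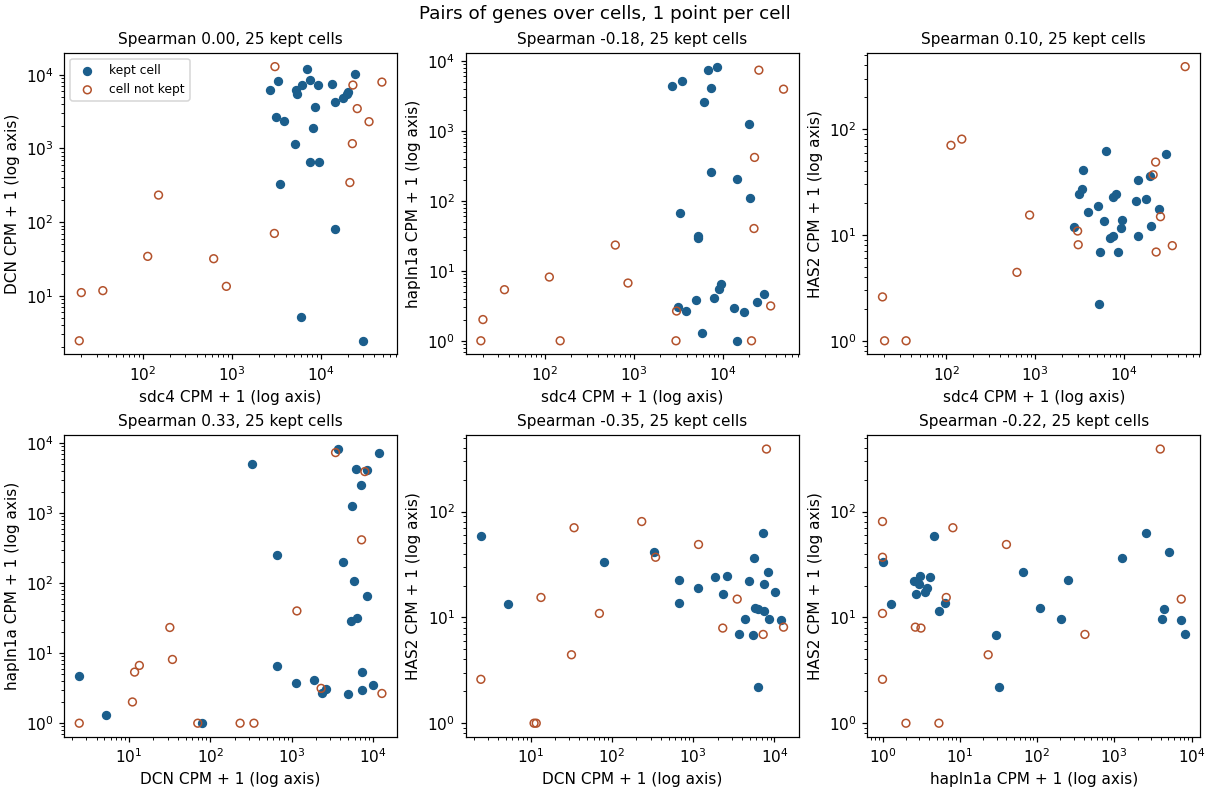
Each of the 6 pairs of genes with 1 point per cell, as CPM + 1 on log axes, kept cells filled and other cells open, with the Spearman correlation over the 25 kept cells above each plot. No pair forms a line: hapln1a is either high or low at the same DCN, and cell 27, open and at the top right of the plots with HAS2, is high in both genes.

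The genes whose levels followed each of the 4 most closely were sought among the other 1673 genes, with LUM left out as too rarely detected. DCN had 30 genes at a Spearman correlation of 0.5 or more (1.79%), hapln1a 11 (0.658%), HAS2 15 (0.897%) and sdc4 7 (0.418%). The median gene had 25 such partners (quartiles 15 and 41). Fewer partners than DCN were found for 59.4% of genes, fewer than HAS2 for 22.8%, fewer than hapln1a for 11.7% and fewer than sdc4 for 3.41%. At -0.5 or below DCN had 17 genes (1.02%), sdc4 6 (0.359%), HAS2 2 (0.12%) and hapln1a 1 (0.0598%), where the median gene had 8.

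The 8 genes with a symbol that were closest to DCN were CLU (0.75), the gene of clusterin, a secreted chaperone; DPT (0.74), of dermatopontin, a matrix protein that binds decorin; soul5 (0.71); AOC3 (0.67), of an amine oxidase of the cell surface; TMBIM6 (0.66), of a protein of the endoplasmic reticulum; LAMP2 (0.64), of a lysosomal membrane protein; pfn2b (0.63); and mfap5 (0.61), of a protein of elastic microfibrils. Their correlations stayed at 0.5 or more in every setting except over all 40 cells, where CLU had 0.40, LAMP2 0.30 and TMBIM6 lay just under 0.5. DPT, found in 16 of 25 kept cells, was at a median of 19.4 CPM with a highest value of 2664 CPM. CLU was found in 21, with a median of 46.7 CPM and a highest value of 12829.6 CPM, and mfap5 in 22, with a median of 638.3 CPM. Among genes with a symbol, ELMO3 (-0.64), spred2a (-0.63) and ccdc50b (-0.58) had the lowest correlations. Over all 40 cells these were at 0.01, -0.03 and 0.05.

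DCN also followed the collagens that decorin binds. Of the 7 collagen genes of the list that entered the comparison, 2 reached 0.5, col1a1a with 0.60 and COL5A2 with 0.56, and the median was 0.48, beside 0.00 over all genes. COL1A1 (ENSDARG00000035809), COL1A2 and COL6A3 had 0.48, 0.49 and 0.47, and COL5A1 and COL6A2 0.28 and 0.20. The median over the 9 fibroblast marker genes that entered was 0.48 as well, with 3 at 0.5 or more, among them SPARC, a collagen-binding matrix gene, at 0.61. The collagen and fibroblast lists share genes and are not separate evidence. MMP2, of a matrix protease, had 0.07. For the other 3 genes the median over the collagens was close to 0: -0.11 for sdc4, 0.12 for hapln1a and -0.02 for HAS2. Some genes listed as markers of another cell type moved with DCN too. The summed level of the 14 cardiomyocyte marker genes had a correlation of 0.54 with DCN, and 3 of these genes, which entered the comparison, a median of 0.48. That sum was small, with 9.0e-05 to 1.05% of reads in kept cells and a median of 0.0115%, and myh6 and 1 of 2 TNNI1 genes were at 0 in all of them. Cells 18 and 40 had 8 and 7 of the 14 genes at 50 CPM, and no other kept cell had more than 1. In most cells the sum thus does not stand for the whole list, and its part in the levels of DCN was not tested.

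**Figure D3:**
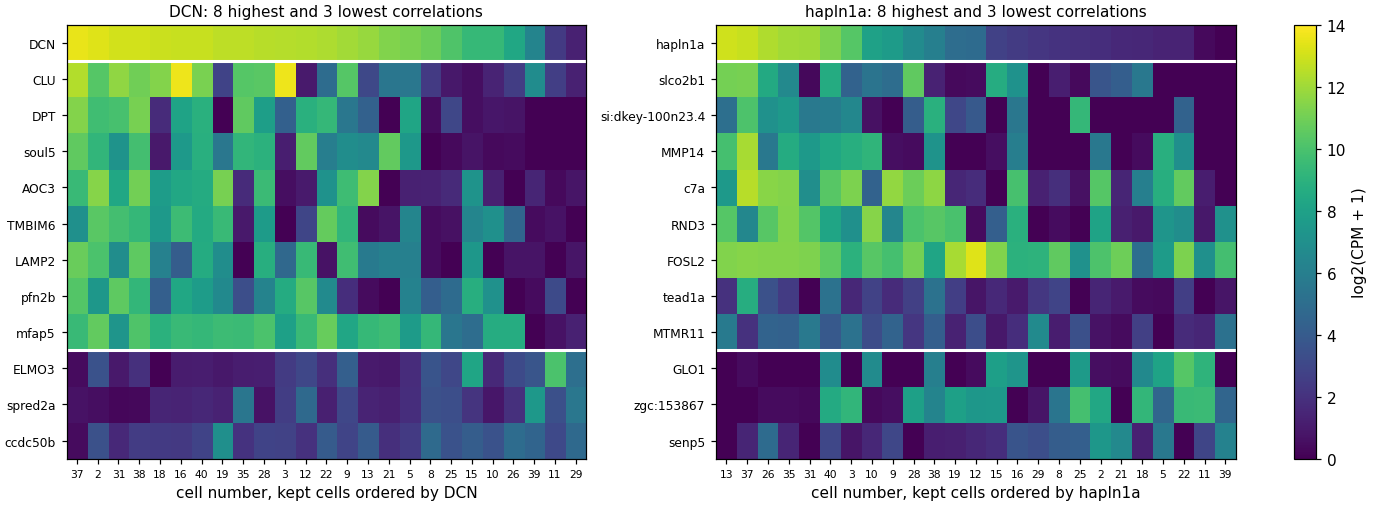
Levels as log2(CPM + 1) in the 25 kept cells, ordered from left to right by DCN (left) or hapln1a (right). The gene itself is in the top row, with its 8 highest correlations below and its 3 lowest under the second line. Both sets are taken from genes with a symbol. DPT and soul5 fade from left to right with DCN; on the right, MMP14 has reads in the 8 cells at the left end, and slco2b1 in most of them.

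The genes closest to hapln1a were slco2b1 (0.67), of a transporter of organic anions, si:dkey-100n23.4 (0.64), MMP14 (0.60), of a membrane-bound matrix protease, c7a (0.57), of a complement protein, RND3 (0.55), of a small GTPase that opposes contraction, FOSL2 (0.54), of an AP-1 transcription factor, tead1a (0.53), of a transcription factor of the Hippo pathway, and MTMR11 (0.51). slco2b1 was found in 15 of 25 kept cells and at 50 CPM in 8, with a highest value of 2270 CPM, and MMP14 in 13 and 11, with a highest value of 4635 CPM. The correlation of slco2b1 stayed between 0.55 and 0.68 in all settings and that of MMP14 between 0.41 and 0.68. Over all 40 cells RND3 had 0.34, MTMR11 0.37 and c7a and FOSL2 0.42, while si:dkey-100n23.4 had 0.61 and tead1a 0.54. Without cells 11, 18 and 40 FOSL2 had 0.46 and tead1a 0.43. Among genes with a symbol, the lowest values were those of GLO1 (-0.49), zgc:153867 (-0.46) and senp5 (-0.44). A gene without a symbol lay lower, at -0.54. Over all 40 cells GLO1, zgc:153867 and senp5 had -0.17, -0.05 and -0.11. SPARC had 0.46 and DPT 0.40 with hapln1a, while the median over the 9 fibroblast marker genes compared was 0.12.

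The highest correlation of sdc4, 0.52, was below those of DCN, hapln1a and HAS2, at 0.75, 0.67 and 0.68. For sdc4 the highest among genes with a symbol were CCNL1, SLC43A3 and si:dkey-4c15.11 at 0.52. They were followed by CD63, of a tetraspanin of vesicles, SAT1, si:ch73-167f18.3 and IRS2 at 0.50 and si:ch73-59c19.2 at 0.49. Of the 8 genes closest to sdc4, 2 had no symbol. The lowest was MDM4 (-0.69), of a regulator of p53, which was -0.14 over all 40 cells, then srrm1 (-0.56) and NDUFB8 (-0.55). With median-of-ratios scaling of the kept cells these were at -0.45, -0.24 and -0.27. In that setting si:ch73-167f18.3 had 0.16, IRS2 0.30 and si:ch73-59c19.2 0.32, while CCNL1 had 0.47 and CD63 0.54. The number of genes at 0.5 or more was 11 without cell 40 and 12 without cells 11, 18 and 40, in place of 7. For HAS2 the highest were mul2 (0.68), lyrm1 (0.64), TAFAZZIN (0.61), of an enzyme of cardiolipin in mitochondria, SLC25A25 (0.61), of a mitochondrial carrier, CDK16 (0.58), sertad4 (0.54), marcksl1a (0.53) and zgc:171551 (0.52). Over all 40 cells SLC25A25 had 0.13, zgc:171551 0.20 and CDK16 0.28. With median-of-ratios scaling of the kept cells CDK16 had 0.35 and sertad4 and zgc:171551 0.26, while mul2 and lyrm1 had 0.54 and 0.51. The lowest among genes with a symbol were RPL28 (-0.52), SKP1 (-0.50) and DAZAP2 (-0.48), while a gene without a symbol had -0.57. RPL28 was at -0.28 with median-of-ratios scaling. mul2, lyrm1 and TAFAZZIN were, like HAS2, detected in nearly every kept cell at low levels, with medians of 34.9, 26.4 and 8.07 CPM. Without cells 11, 18 and 40 the number of genes at 0.5 or more with HAS2 was 29 in place of 15.

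Stress genes were abundant in these cells. Of 27 immediate early and 19 heat shock genes measured, 13 and 8 were found in 90% or more of kept cells. Over the 23 immediate early genes compared, the median correlation was 0.03 with sdc4, 0.01 with DCN, 0.14 with hapln1a and 0.04 with HAS2. The genes at 0.5 or beyond in either direction were FOSL2 with hapln1a and egr2a with sdc4, at -0.51. Over 13 heat shock genes the medians were -0.05, -0.14, -0.04 and -0.01, and hsp70l, at -0.56 with DCN, was the gene beyond 0.5. It was highest, at 86533.5 CPM, in cell 11, where DCN was nearly missing. The summed heat shock level had -0.37 with DCN and the summed immediate early level 0.34 with HAS2. For 5 of the 13 genes of syndecan 4 partners in adhesion that entered the comparison, the median with sdc4 was -0.10. FN1 (ENSDARG00000006526), a fibronectin gene, had 0.13 with sdc4 and ITGA5, of the fibronectin receptor, -0.10. Another gene listed as FN1 was also among the 13. The summed level of all 13 had 0.25, of the opposite sign.

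The wider pathway was covered by 11 lists with 159 symbols, of which 137 were found as 139 genes. Of these, 4 passed 5 reads in 90% or more of kept cells, namely sdc4, DCN, HAS2 and hapln1a, 39 in 10 to 90%, 35 in fewer and 61 in none. Of all 33737 genes, 483 were in at least 90%, 6866 in 10 to 90%, 7361 in fewer and 19027 in none.

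Of 12 genes for cores with heparan sulfate, sdc4 included, 6 were in 10 to 90% of kept cells and 4 in none. HSPG2, of perlecan in basement membranes, was detected in 13 with a highest value of 1562 CPM in cell 35, sdc2 in 11 with a highest value of 450.1 CPM, col18a1b in 9 and col18a1a in 8. GPC4, a glypican gene, was detected in 4 cells but had 2135 CPM in cell 38, and AGRN in 4. Of the 16 leucine-rich proteoglycan genes, 5 were in 10 to 90% and 9 in none. A gene listed as FMOD, of fibromodulin, was found in 17 kept cells, 4 of them at 50 CPM. PRELP, which anchors basement membrane to collagen, was found in 12 and at 50 CPM in 7, with a highest value of 2879 CPM in cell 26. ecm2 was detected in 8, PODN in 5 and a gene listed as BGN, of biglycan, in 1, with 22.1 CPM in cell 40. Another FMOD gene and another BGN gene had no read in kept cells.

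Of the 11 genes for chondroitin sulfate proteoglycans and lecticans, 4 were in 10 to 90%. srgn, of serglycin, a proteoglycan of secretory granules, was the most frequent, in 19 kept cells and at 50 CPM in 17, with a median of 291.2 CPM and a highest value of 1687 CPM. Of 2 genes listed as PTPRZ1, 1 was detected in 5 and the other had no read in kept cells. prg4b was detected in 6 with at most 2.58 CPM, and CSPG4 in 2.

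Of the 9 genes of hyaluronan supply, HAS2 included, 5 were in 10 to 90% of kept cells. HAS1, the other synthase with reads, was detected in 4 kept cells and reached 50 CPM in all 4, with a highest value of 1703 CPM in cell 10, where HAS2 was at 21.7 CPM. Its correlation with HAS2 was 0.13. UGDH, which makes the glucuronic acid donor, was detected in 14 and had 8967 CPM in cell 2, UAP1 in 8 with a highest value of 3231 CPM in cell 12, GFPT2 in 8 and GFPT1 in 3. UGDH had a correlation of 0.38 with HAS2 and 0.33 with sdc4. Of the 17 genes for proteins that bind hyaluronan, TNFAIP6, which crosslinks it in inflammation, was detected in 16 kept cells and at 50 CPM in 11, with a highest value of 1214 CPM in cell 19, and ITIH5 in 9. Of the receptor genes, cd44b and lyve1a were detected in 1 kept cell each and stab1 in 2. habp2, of a binding protein, was detected in 1, and 8 of the 17 in none, beside 19027 of all 33737 genes. Of the 9 genes of hyaluronan breakdown, CEMIP was detected in 4 kept cells, CEMIP2 in 2, HYAL1 in 1 and 6 genes in none.

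**Figure D4:**
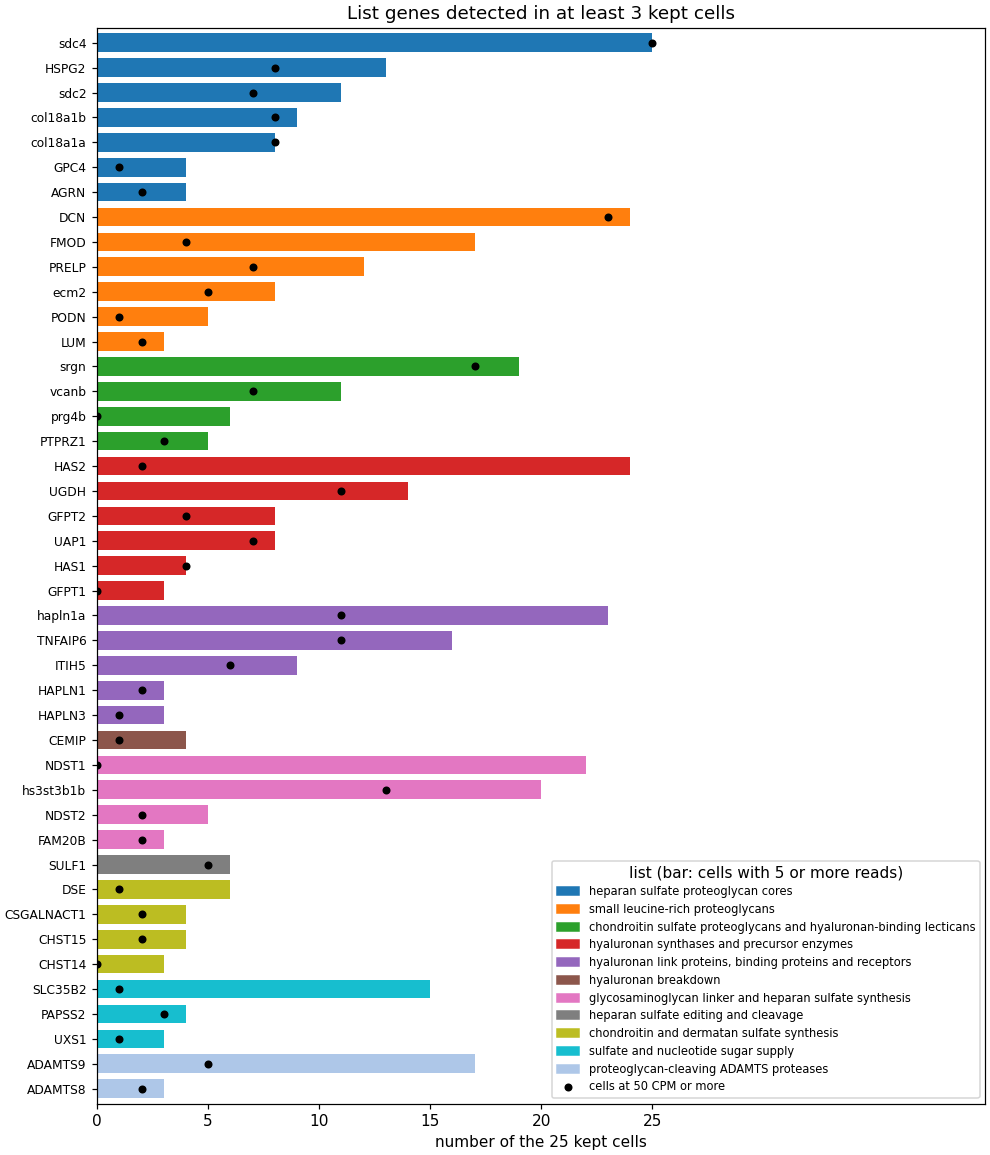
Number of the 25 kept cells with 5 or more reads (bars, coloured by list) and with 50 CPM or more (black points) for the list genes detected in at least 3 kept cells. sdc4 and DCN have both counts near 25, whereas HAS2 and NDST1 have long bars with points at 2 and 0.

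Of 24 genes for the enzymes that build the linker and heparan sulfate, 4 were in 10 to 90% of kept cells, 9 in fewer and 11 in none, to be read beside the counts over all genes given above. NDST1, which starts the sulfation of heparan, was detected in 22 but at no more than 25.1 CPM, and hs3st3b1b, which adds a late sulfate, in 20 and at 50 CPM in 13, with a highest value of 364.9 CPM in cell 39. EXT2, of the enzyme that lengthens the chain, was detected in 2 and FAM20B in 3. All 25 kept cells had sdc4 above 1000 CPM, and 23 of them no detected EXT2, at a depth where a low transcript may be missed. SULF1, which removes sulfates outside the cell, was detected in 6 kept cells with a highest value of 656.9 CPM, and of the 5 editing genes 1 was in 10 to 90%. Of 23 genes for chondroitin and dermatan sulfate, 4 were in 10 to 90%, DSE in 6, CSGALNACT1 and CHST15 in 4 and CHST14 in 3. Of 7 genes for sulfate and sugar supply, 3 were in 10 to 90%, with SLC35B2 in 15 and 1 of 2 PAPSS2 genes in 4. The other PAPSS2 gene had no read in kept cells. Of 6 ADAMTS protease genes 2 were in 10 to 90%, with ADAMTS9, which cleaves versican, in 17 but at 50 CPM in 5. Its correlation with hapln1a was 0.32.

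Other cell types were looked for with 10 marker lists. Over the kept cells the median share of reads was 0.348% for epicardial and 0.947% for fibroblast markers. It was 0.208% for mural cell markers and 0.0115% or less for the other 7 lists. The mural share does not stand for the whole list, as 1 of its 10 genes was detected in at least 90% of kept cells. Cell 8, with the highest mural share of 0.437%, and cell 13, with 0.309%, each had 1 mural gene detected. The most detected in a kept cell was 6, in cells 5 and 40. Endothelial markers reached 0.162% and lymphocyte markers 0.0656% at most, both in cell 26, where 1 gene of each list was detected. Thrombocyte, neutrophil and erythrocyte markers reached at most 0.0248%, 0.00344% and 0.00212%. In cell 40, 10 of 14 cardiomyocyte, 9 of 14 macrophage and 7 of 9 thrombocyte marker genes were detected. DCN followed the summed fibroblast markers with a correlation of 0.64, hapln1a with 0.24, sdc4 with -0.09 and HAS2 with -0.04. With the summed epicardial markers the values were -0.04, -0.10, -0.30 and 0.41. hapln1a had 0.44 with the summed erythrocyte markers, a sum of at most 0.00212% of reads.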

How the data were processed

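Transcripts of 40 single cells, captured on the Fluidigm C1 per the labels' protocols, were analysed from 1 deposited table of expected counts per gene and cell, which are estimates and can be fractional. RSEM 1.2.12, Bowtie2 and the genome build Zv9 are named in the submitters' processing notes. How they were run is not given in the sources used here, so reads of near-identical genes may be divided uncertainly. No molecular identifiers are named, so intervals cover the counting of cells only. Symbols came from a gene name table, which named 21939 of 33737 genes; 290 of 348 list symbols were found, ignoring case and, failing that, the copy letter. No 2 columns were identical and no doublet caller was run. No sequences are shown.

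CPM used the cell's total of expected counts; cells with 2000 genes at 5 or more reads were kept (25 of 40). Intervals are Wilson's 95%. Named genes were the 5 genes, the lists, and for 4 of the genes the 8 highest and 3 lowest Spearman correlations among genes with a symbol. Members and lists were chosen with earlier results of these data known. Alternatives were other detection levels, scaling, cells and correlation measures. The correlation step was run on simulated counts with planted links, as a check of the calculation only. Python 3.11.15, pandas 2.3.3, scipy 1.17.1 and statsmodels 0.14.6 were used.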

Additional observations from a re-analysis of the deposited data

How the results depend on the processing

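The setting without cells 11, 18 and 40 was chosen after seeing the data; all others were planned. Mean levels stayed within 1 SD over cells in all 5 settings for all 5 genes. The share of kept cells with hapln1a was 56.0% at 20 reads and 44.0% at 50 CPM, in place of 92.0%, and that with HAS2 8.0% at 50 CPM, in place of 96.0%. With any read above 0 the shares of DCN and HAS2 were 100%. Over all 40 cells, correlations were 0.37 for sdc4 and DCN, 0.23 for sdc4 and hapln1a, -0.0249 for DCN and HAS2 and -0.00967 for hapln1a and HAS2, and those of ELMO3 and ccdc50b with DCN turned to 0.00959 and 0.0515. Of 50 correlations, those of pairs and named genes, 21 moved by more than 0.2 over all 40 cells. A further 2, those of ELMO3 and ccdc50b with DCN, reversed. Among the 21, the pair of sdc4 and hapln1a also changed sign, from -0.18, and that of sdc4 and DCN from -0.0015. Other pair correlations moved by less than 0.2. For median-of-ratios scaling the pairs alone were counted, and some named genes moved there too: MDM4 with sdc4 had -0.45 in place of -0.69. The number of genes at 0.5 or more depended on the setting: for sdc4 it was 4 by Pearson correlation of log2(CPM + 1), 15 after correction for genes detected, 15 over all 40 cells, 11 without cell 40 and 12 without cells 11, 18 and 40; for DCN 59 by Pearson correlation and 57 over all 40 cells; for hapln1a 18 and 20; for HAS2 29 without cells 11, 18 and 40 and 35 with no filter on the mean level. At 50 CPM, 103 genes in place of 483 were in at least 90% of kept cells. Causes were not tested. No paired analysis was possible because there is 1 group. Low transcripts can be missed in single cells, so a gene not detected is not shown to be absent.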
